A study of Pimephales promelas with 28 samples.

Results

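The 200 transcripts whose liver levels differed most between control arrays of the same time were examined, to see which of them rose and fell together and whether phenanthrene-exposed arrays shared that pattern. They were taken from 15208 probes on a one-colour Agilent array of the fathead minnow, of which 7207 were well above background, by the scanner software's own call, on all 14 control arrays. The 200 probes of highest median on control arrays were set aside, as were 13 probes whose 28 sorted values had a gap of 2 log2 units or more with at least 3 arrays on each side. The remaining 6994 were ranked by the SD within control groups, pooled over the 3 times, and the first 200 (2.86%) are the members. The other 6794 ranked probes are called the other candidates. The members were chosen by their measured control values, so their spread on control arrays is a description and was not tested. The exposed arrays entered the choice only through the gap rule.

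Fathead minnows (Pimephales promelas) are small freshwater fish used in aquatic toxicology, and liver total RNA of sexually regressed females, labelled with Cy3, was measured. Control fish (agent none, 0 ng/L) gave 4 arrays for 24 h and 5 each for 48 h and 72 h. Exposed fish (phenanthrene, 29 ng/L as the labels give the unit) gave 5 arrays each for 24 h and 48 h and 4 for 72 h. The labels do not say whether each array held RNA of a separate fish or of a pool, so every spread and p-value below measures differences between these arrays, which may be technical.

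Phenanthrene is a polycyclic aromatic hydrocarbon, a class of compounds from petroleum and combustion. Fish liver clears such compounds through cytochrome P450 enzymes, several of which are induced through the aryl hydrocarbon receptor. In spawning females the liver also makes egg-yolk precursor protein under oestrogen, and this output is low in regressed fish. In whole liver, fewer cells of a type and less RNA per cell cannot be told apart.

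A level is the log2 processed signal of a probe minus the 75th percentile of its array, so that 1 unit is a 2-fold difference and 0 is the 75th percentile. Levels of a group are listed in the order of its replicate numbers, which only name the arrays. This percentile was 134.5 to 1253.1 intensity units, and 5127 to 12278 probes per array were well above background. The arrays lay on 5 slides scanned on 2 days, and the first day held 4 control and 4 exposed arrays, all of 48 h. 3 exposed arrays stood apart. The bright corner control spots reached a log2 signal of 17.87 on 48 h replicate 1 and 19.00 on 72 h replicate 4, against at most 11.85 on any control array, and the count of 5127 belonged to 24 h replicate 3. Results on exposed arrays are therefore in part also given without these 3. No pair of arrays correlated above 0.959 over all probes. The identifiers of the probes name expressed-sequence contigs, gi numbers and clones. None of the members' identifiers matched the reference table of 64593 genes. Nor did any contig or clone identifier of the other probes, whose gi numbers were not counted. Members are therefore named by probe, and no function is given to them here. The labelled tissue could not be checked against marker genes for the same reason.

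The members were not dim probes. Their median control level was -0.01, beside 0.00 for the other candidates, and the levels of single members ran from -3.37 to 6.29. On all 28 arrays 133 members (66.5%) were well above background, beside 4375 other candidates (64.4%). Of 2800 member values on exposed arrays, 94 were not well above background, and every member was well above it on at least 9 exposed arrays. Contigs made up 184 members (92.0%), beside 87.3% of the other candidates, and the rest were 15 gi numbers and 1 clone.

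The SD of the members within control groups had a median of 1.80 log2 units and ran from 1.39 to 3.77, beside a median of 0.51 for the other candidates. Between its lowest and its highest control array a member differed by a median of 5.96 log2 units, or 62.2-fold. The threshold fell in a dense stretch of the ranking. The last 3 members, UF_Ppr_AF_106666, UF_Ppr_AF_106690 and UF_Ppr_AF_115818, had SDs of 1.391, 1.3893 and 1.3873, and the first 3 probes outside, UF_Ppr_AF_108673, UF_Ppr_AF_105382 and UF_Ppr_AF_116212, had 1.3865, 1.3853 and 1.3843.

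The widest spread belonged to UF_Ppr_AF_117573, with an SD of 3.77. Its control levels were -1.23, 6.17, 6.07 and -0.86 in the 24 h group, 3.64, -2.0, 4.62, 1.1 and 3.73 in the 48 h group, and 6.59, -3.79, -0.3, 1.8 and 5.96 in the 72 h group. Its exposed levels were 4.63, 0.97, -3.33, 2.24 and -2.38 in the 24 h group, 4.76, 4.83, -3.37, 5.85 and 0.54 in the 48 h group, and 2.92, 1.68, 6.95 and -4.92 in the 72 h group. Each time held both high and low arrays in either set, and the SD on exposed arrays was 4.00. The lowest exposed level came from 72 h replicate 4, which stood apart, followed by 48 h replicate 3.

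The next member, UF_Ppr_AF_107674, had an SD of 3.69 on control arrays and 3.505 on exposed arrays. Control levels were -0.96, 3.82, 2.72 and 0.53 in the 24 h group, -0.56, 9.11, -0.31, -1.76 and 7.81 in the 48 h group, and 3.08, 5.72, -0.25, 0.31 and 4.98 in the 72 h group. Exposed levels were 0.36, 5.64, 0.14, 7.18 and 6.98 in the 24 h group, 2.89, 0.86, -1.32, 3.09 and -3.14 in the 48 h group, and 0.48, 1.48, 0.39 and 9.38 in the 72 h group. At 48 h control replicates 2 and 5 were far above the other 3, and at 24 h exposed replicates 2, 4 and 5 were far above the other ones. Exposed 72 h replicate 4, which stood apart, was the highest of all.

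In UF_Ppr_AF_102443 a few low arrays stood out. On control arrays it read 4.47, 5.86, 1.12 and 6.36 in the 24 h group, 5.48, 6.52, 1.72, 2.6 and 6.4 in the 48 h group, and -3.59, 6.93, 5.15, 6.77 and 4.84 in the 72 h group. On exposed arrays it read 5.85, 6.95, -3.14, 1.69 and 2.4 in the 24 h group, 6.16, -2.91, 3.58, 7.04 and 4.96 in the 48 h group, and -1.73, 4.43, 0.11 and 6.63 in the 72 h group. Below 0 lay control 72 h replicate 1 and exposed 24 h replicate 3, 48 h replicate 2 and 72 h replicate 1, while the other control arrays lay between 1.12 and 6.93. The SD was 3.20 on control arrays and 3.93 on exposed arrays.

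UF_Ppr_AF_116644 (SD 3.10) and UF_Ppr_AF_105913 (SD 2.98) came next. For UF_Ppr_AF_116644 the control levels were 0.82, -1.98, -0.39 and 0.71 in the 24 h group, 7.25, -2.38, 4.43, 3.0 and 2.89 in the 48 h group, and -1.71, 2.31, 6.74, 1.41 and -2.12 in the 72 h group. The exposed levels of UF_Ppr_AF_116644 were 1.17, 4.6, 5.04, 3.22 and -1.96 in the 24 h group, 3.12, 1.21, 8.15, 5.06 and 5.32 in the 48 h group, and 5.22, 1.35, 2.66 and -0.33 in the 72 h group. For UF_Ppr_AF_105913 the control levels were 2.33, -0.39, 1.29 and 2.04 in the 24 h group, 8.46, -0.9, 5.49, 5.15 and 4.11 in the 48 h group, and -0.3, 3.72, 7.89, 3.71 and -0.28 in the 72 h group. These probes had their highest control levels on the same arrays, 48 h replicate 1 and 72 h replicate 3. The exposed levels of UF_Ppr_AF_105913 were 2.1, 5.48, 6.57, 4.29 and -1.19 in the 24 h group, 6.32, 3.39, 8.91, 5.81 and 6.45 in the 48 h group, and 6.82, 3.77, 4.36 and 2.41 in the 72 h group. Here too both had their highest level on 48 h replicate 3 and their lowest on 24 h replicate 5.

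Members stayed variable on the exposed arrays. Their median SD within exposed groups was 1.86 (quartiles 1.57 and 2.22), beside 0.76 for the other candidates (0.57 and 1.03). Of the members, 197 exceeded the median of the other candidates and 191 exceeded their upper quartile. An SD at least as high as the lowest control SD of a member was reached on exposed arrays by 177 members (88.5%) and by 643 other candidates (9.46%). Among the 200 widest of the 6994 ranked probes on exposed arrays, 79 (39.5%) were members, and this count was 115 without the 3 arrays that stood apart. Across the ranked probes the control and exposed SDs had a Spearman correlation of 0.62, a description over probes that share the same arrays.

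The order of the spread between control and exposed arrays differed between members and other candidates. More spread on exposed than on control arrays was seen for 96 members (48.0%) and for 5801 other candidates (85.4%). Without the 3 arrays the counts were 73 (36.5%) and 4584 (67.5%), and the median exposed SDs were 1.73 and 0.61. Members had been picked at the top of the control ranking, so a share below that of the other candidates follows in part from the choice and is not a result about them.

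**Figure D1:**
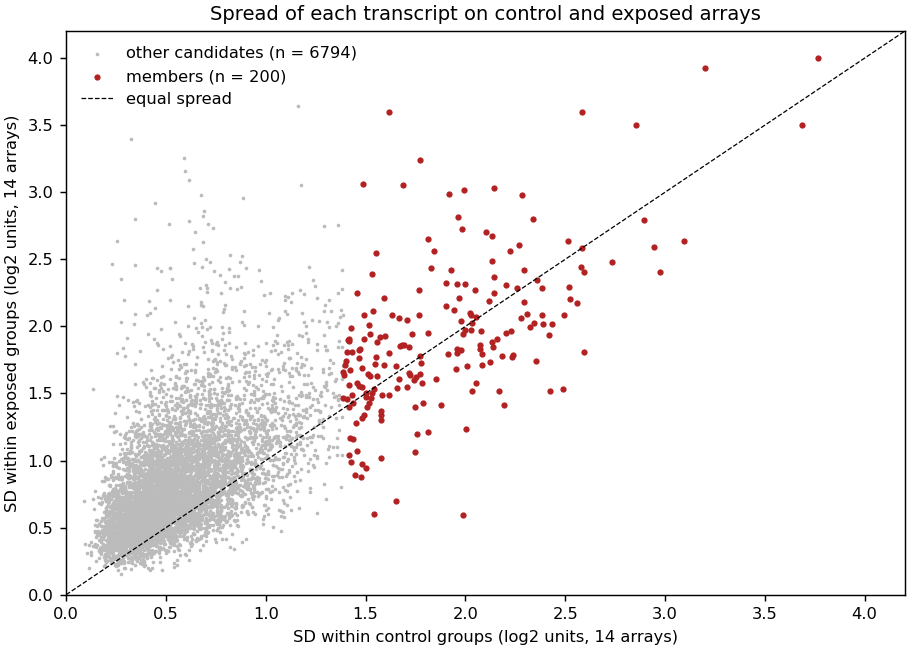
SD within control groups (x axis) against SD within exposed groups (y axis), both in log2 units over 14 arrays, for the 200 members (red) and the 6794 other candidates (grey), with equal spread as a dashed line. Members start at a control SD of 1.39 by the rule, and 197 of them lie above the other candidates' median exposed SD of 0.76.

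3 members lay below the other candidates' median on exposed arrays: UF_Ppr_AF_115833 (SD 0.70), UF_Ppr_AF_118325 (0.60) and UF_Ppr_AF_104945 (0.59). The control levels of UF_Ppr_AF_104945 were 3.36, 2.42, 2.45 and 2.38 in the 24 h group, 3.08, 1.19, 3.58, 3.69 and 3.28 in the 48 h group, and 2.38, 3.0, 2.99, -4.13 and 2.81 in the 72 h group. Over exposed arrays they were 3.04, 2.78, 3.13, 3.04 and 1.8 in the 24 h group, 4.5, 3.01, 2.37, 3.23 and 3.74 in the 48 h group, and 2.71, 2.78, 2.78 and 2.42 in the 72 h group. A single control array, 72 h replicate 4, lay at -4.13 where the other 4 of its group lay between 2.38 and 2.998, and all other arrays of both sets lay between 1.19 and 4.50. UF_Ppr_AF_118325 was likewise set by 1 control array, 72 h replicate 3 at 2.64, with the other 13 control arrays between -3.68 and -0.98. UF_Ppr_AF_115833 had 4 control arrays between 0.52 and 3.22, spread over all 3 times, and its other control arrays lay between 4.35 and 5.97. The widest on exposed arrays after UF_Ppr_AF_117573 and UF_Ppr_AF_102443 was UF_Ppr_AF_102387, with an SD of 3.60 there and 1.62 on control arrays. It reached 8.91 on exposed 72 h replicate 4, an array that stood apart, and the other 3 arrays of the group lay between 0.24 and 0.93.

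Spread at 24 h was lower than at later times on the control arrays. The median SD of the members was 1.42, 1.74 and 1.89 in controls and 1.59, 1.89 and 1.81 in exposed groups (24, 48 and 72 h in turn). For the other candidates it was 0.43, 0.47 and 0.48, and 0.58, 0.73 and 0.70. These medians come from 4 or 5 arrays each, and the differences between times were not tested.

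Co-variation was measured as the Pearson correlation, over 14 arrays, of deviations from the group mean, so that differences between times or treatments do not enter. Of the 19900 pairs of members, 1640 (8.24%) had a correlation of at least 0.8 on control arrays, beside 0.408% of the pairs of other candidates. On exposed arrays 1240 of these 1640 pairs (75.6%) again reached 0.8, 99.1% were positive and the median was 0.89. Among the other candidates 11.3% of such pairs again reached 0.8, and the median was 0.39. Over all pairs, the control and exposed correlations were themselves correlated at 0.58 for members and at 0.22 for other candidates. The largest set of co-varying members, called block 1 in what follows, held most of the tight pairs. Outside it 151 pairs of members reached 0.8 on control arrays, 92 of them (60.9%) did so again on exposed arrays, and over all pairs outside it the control and exposed correlations were correlated at 0.25. Pairs share probes and arrays, so these are descriptions without a test.

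Average-linkage clustering of the members on the control arrays, cut at a correlation of 0.5, gave 9 blocks of at least 5 members, which held 136 members. The other 64 members fell into 27 smaller clusters. Block 1 held 64 members, and blocks 2 to 9 held 17, 16, 9, 7, 7, 6, 5 and 5. Within blocks the mean correlation on control arrays was 0.86, 0.74, 0.81, 0.63, 0.68, 0.64, 0.66, 0.63 and 0.61, which the clustering fixed. The exposed arrays took no part in the clustering. On them the mean correlation was 0.79, 0.51, 0.67, 0.55, 0.66 and 0.57 in blocks 1 to 6. In blocks 7, 8 and 9 it was 0.19, -0.12 and -0.07. The 6 largest blocks thus kept mean correlations of 0.51 to 0.79 on the exposed arrays, and the 3 smallest had means of -0.12 to 0.19. Blocks were formed on control correlations, so means lower on exposed than on control arrays follow in part from the choice. They are not a result about exposure. Single members differed in how closely they kept to their block. Of the 9 members of block 4, 5 correlated with the mean of the rest at 0.8 or more on control arrays. On exposed arrays 5 did so, and 3 on both sets. For the 7 members of block 5 these counts were 4, 4 and 2. In blocks 1 and 3 the counts on both sets were 51 of 64 and 13 of 16.

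**Figure D2:**
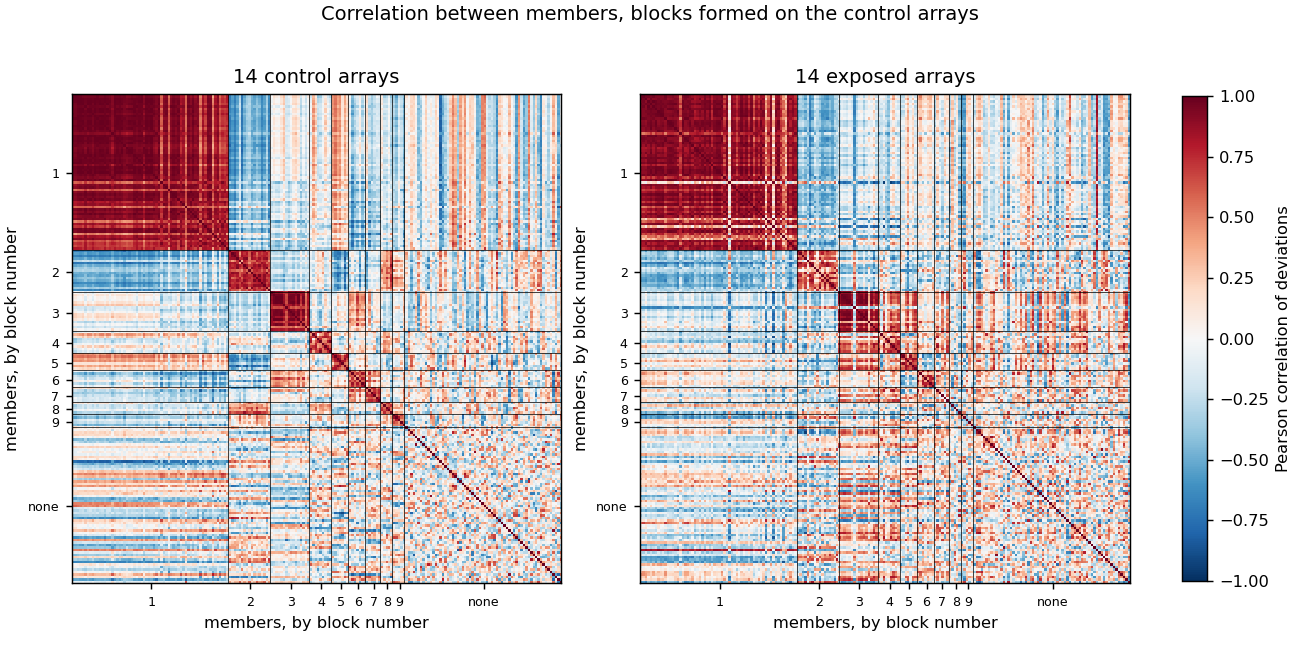
Pearson correlation of deviations from group means between the 200 members, ordered by block on both axes, on the 14 control arrays (left) and the 14 exposed arrays (right), from -1 (blue) to 1 (red). Block 1 (64 members) is red in both panels, with mean correlations of 0.86 and 0.79. Blocks 7 to 9 are red on control arrays, and their mean correlations on exposed arrays are 0.19, -0.12 and -0.07.

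**Figure D3:**
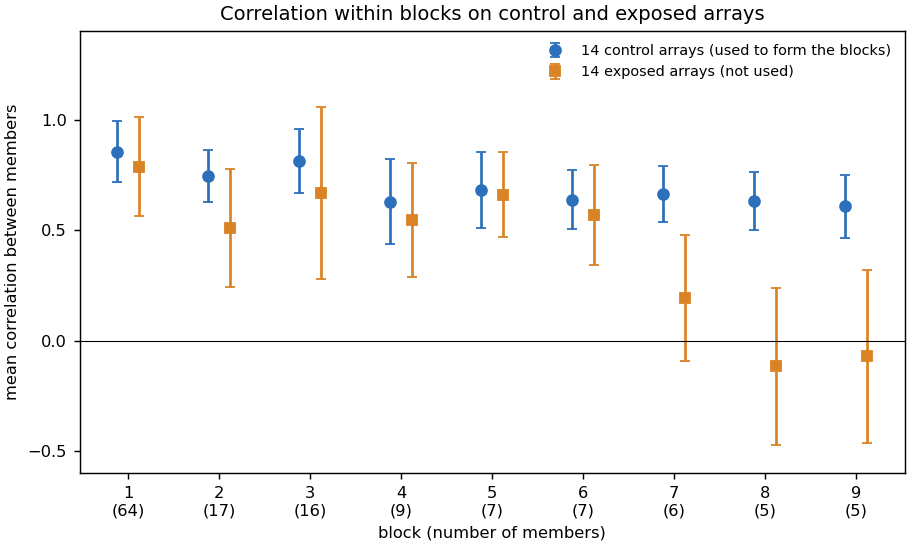
Mean correlation between the members of each block (y axis, no unit) on control arrays (circles, used to form the blocks) and on exposed arrays (squares, not used), with bars of 1 SD over the pairs of a block. Blocks 1 to 6 lie between 0.51 and 0.79 on exposed arrays, and blocks 7 to 9 between -0.12 and 0.19.

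The exposed means were also computed on fewer arrays. Without the 3 arrays that stood apart the exposed means of blocks 1 to 9 were 0.88, 0.46, 0.64, 0.52, 0.79, 0.60, 0.06, -0.08 and 0.06. On the 10 exposed arrays of the second scan day alone they were 0.72, 0.49, 0.63, 0.55, 0.73, 0.51, 0.25, -0.08 and -0.15. With slide means removed they were 0.77, 0.56, 0.65, 0.68, 0.65, 0.42, 0.14, -0.11 and -0.16. The order of the larger blocks against the 3 smallest held in each. The mean of block 5 fell to 0.39 without exposed 24 h replicate 1. With single exposed arrays left out, that of block 4 was 0.395 to 0.62 and that of block 7 was 0.04 to 0.24. A slide term took a median of 37.4% of a member's sum of squares within control groups and 37.1% within exposed groups. For the other candidates these medians were 36.1% and 32.5%, where 4 of 11 degrees of freedom alone amount to 36.4%.

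Block 1 held 64 of the 200 members. The mean level of its members on control arrays was -1.31, -1.65, -0.95 and -1.29 in the 24 h group, 3.16, -2.65, 1.19, 0.5 and 0.13 in the 48 h group, and -1.8, -0.25, 3.19, -0.87 and -2.18 in the 72 h group. On exposed arrays the mean level was -0.79, 0.66, 1.74, -0.34 and -2.09 in the 24 h group, 1.43, -0.62, 4.75, 1.04 and 1.41 in the 48 h group, and 2.34, -0.38, -0.11 and -0.91 in the 72 h group. Control 48 h replicate 1 and 72 h replicate 3 were the high control arrays, control 48 h replicate 2 the low one, and exposed 48 h replicate 3 was the highest of all 28. From lowest to highest array the block mean spanned 57.5-fold in controls and 114.5-fold in exposed fish, taking the log2 difference as a fold.

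At 24 h the control arrays of block 1 differed little. Their block means lay between -1.65 and -0.95, with a mean of -1.30 ± 0.28 (SD, n = 4), and members had a median SD of 0.55 there, beside 2.32 at 48 h and 2.11 at 72 h. The exposed 24 h arrays spread from -2.09 to 1.74, with a mean of -0.16 ± 1.45 (SD, n = 5). Within single groups the mean correlation of block 1 was 0.28, 0.86 and 0.95 in controls (24, 48 and 72 h in turn) and 0.73, 0.89 and 0.78 in exposed groups. The control correlation thus rested on the 48 h and 72 h arrays. It was 0.77 to 0.88 with each control array left out in turn, and 0.63 without control 48 h replicate 1 and 72 h replicate 3 together. Choosing the members again without control 72 h replicate 3 kept 165 of the 200 and 43 of the 64 in block 1.

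On exposed arrays 1991 of the 2016 pairs in block 1 were positive and 88.2% were at least 0.5. With each exposed array left out in turn the mean stayed between 0.70 and 0.84. Against the mean of the rest of the block, 51 of the 64 members had a correlation of at least 0.8 on both control and exposed arrays. The lowest on exposed arrays was 0.18, for UF_Ppr_AF_112680. Of the 64 members, 54 were well above background on all 28 arrays. Their spots lay across the slide, in spot rows 2 to 188 of 192 and columns 7 to 82 of 82.

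Closest to a block means, here and below, the highest correlation with the rest of the block on control arrays, whatever it was on exposed arrays. By this rule the member closest to block 1 was UF_Ppr_AF_118032, at 0.99, beside 0.94 on exposed arrays. Its control levels were -2.17, -2.09, -1.33 and -2.21 in the 24 h group, 3.72, -3.54, 0.96, 0.44 and -0.28 in the 48 h group, and -3.11, -0.84, 4.03, -0.96 and -3.23 in the 72 h group. Exposed levels of this probe were -1.3, 0.52, 2.81, 0.37 and -4.11 in the 24 h group, 1.91, 0.04, 4.88, 1.36 and 1.41 in the 48 h group, and 3.17, -0.17, 0.01 and -0.51 in the 72 h group. That it followed the block mean on the control arrays was fixed by this choice. Its highest levels of each exposed time were on 24 h replicate 3, 48 h replicate 3 and 72 h replicate 1, as in the block. UF_Ppr_AF_103912 ran from -4.29 to 2.41 on control arrays and from -2.83 to 4.42 on exposed arrays. UF_Ppr_AF_103908, the next closest, ran from -3.74 to 3.26 and from -2.27 to 4.79.

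**Figure D4:**
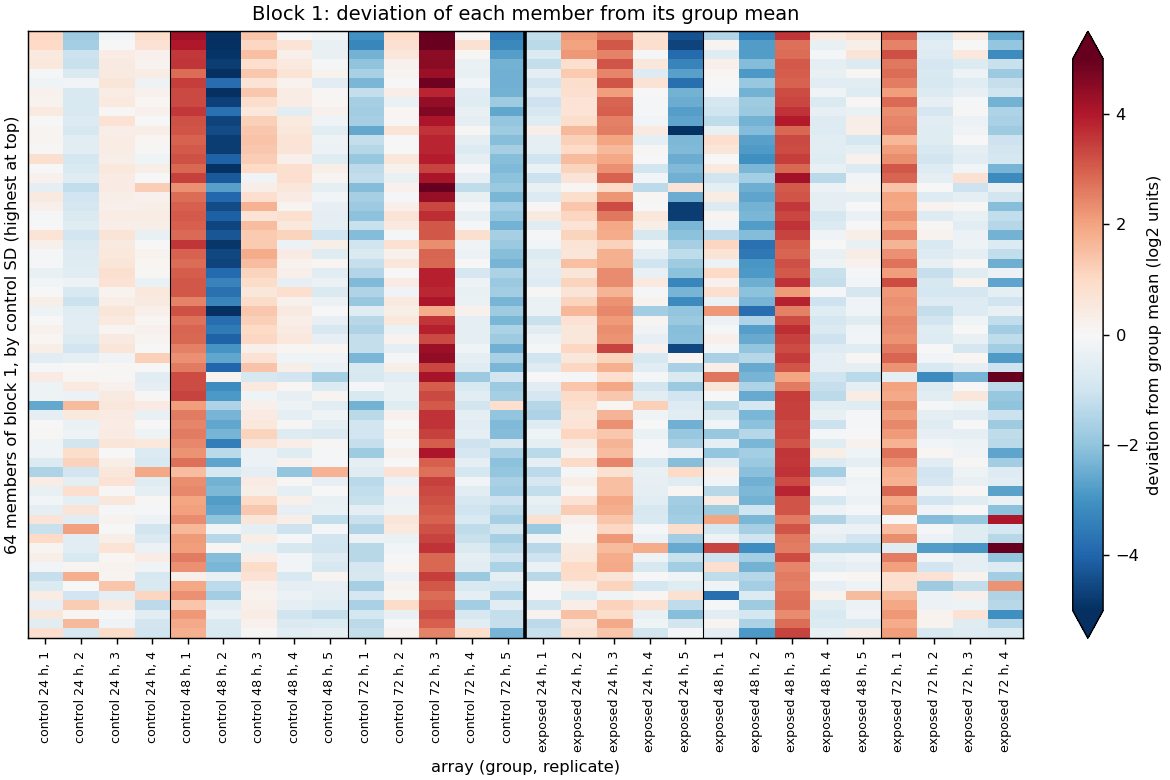
Deviation from the group mean (colour, log2 units, truncated at 5 in either direction) of the 64 members of block 1 (ordered on the y axis by control SD) on each of the 28 arrays (x axis), with control arrays to the left of the thick line. Control 48 h replicate 1 and 72 h replicate 3 and exposed 48 h replicate 3 are red for nearly the whole block, and control 48 h replicate 2 is blue.

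Probes that are not members joined the profile of block 1 too. Of the other candidates, 27 correlated with the block mean at 0.8 or more on both control and exposed arrays, 57 (0.839% of 6794) on exposed arrays. Of the 8001 probes not well above background on every control array, 128 did so on both. Members, of which 51 in block 1 did so, and the brightest and split probes had been taken out of the 6794 only. The counts 27 and 128 are therefore of unlike sets, and their shares are not compared. The members of block 1 had themselves a median control level of -0.97, below that of all members. None of the 200 brightest probes did.

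Block 1 was set against 3 measures of each array: the 75th percentile, the number of probes well above background, and the signal of negative-control spots. Each level already has the 75th percentile of its array subtracted, so relations to that percentile are not between separate measures. The control levels chose and clustered the members, so relations on control arrays are descriptions without a test. There the mean of block 1 and the log2 negative-control signal had r = 0.81 and Spearman rho = 0.51 over 14 arrays. Without the 2 arrays farthest from the median of that signal r was 0.40, so the relation rested on those arrays. They were control 48 h replicate 1 and 72 h replicate 3, with negative-control signals of 2.38 and 2.12 beside a control median of 0.95, and they are also the high control arrays of block 1. On the 14 exposed arrays r was 0.01 (permutation p = 0.975) and rho 0.01 (permutation p = 0.976), and r was -0.22 without the 2 farthest. Exposed 48 h replicate 3, the highest in block 1, had a negative-control signal of 0.44. Over the 9 blocks 27 relations were tested on exposed arrays, of which 5 had an unadjusted p under 0.05 and 0 a Benjamini-Hochberg adjusted p under 0.05. Slide means took a median of 48.4% of the sum of squares of a block 1 member on control arrays and 41.9% on exposed arrays. These lay above the medians over all members, 37.4% and 37.1%. Control 48 h replicate 1 and 72 h replicate 3 lay on the same slide. Its other control arrays, 24 h replicate 3 and 72 h replicate 2, also lay above their group means in block 1, by 0.35 and 0.13. Its exposed arrays, 24 h replicates 3 and 4 and 72 h replicate 2, deviated by 1.91, -0.17 and -0.62. The part of the slide in block 1 was not tested further. With slide means removed the mean correlation was 0.80 and 0.77.

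Block 2, with 17 members, ran against block 1. The mean correlation between a member of block 1 and one of block 2 was -0.43 on control arrays and -0.38 on exposed arrays, the lowest of the 36 block pairs on exposed arrays. Its mean level on control arrays was -0.31, 2.87, 2.72 and 0.82 in the 24 h group, -1.07, 3.84, -0.09, 0.07 and 3.12 in the 48 h group, and 0.56, 3.45, -0.4, -0.02 and 1.32 in the 72 h group. On exposed arrays it was 0.26, 2.2, 0.26, 2.29 and 3.23 in the 24 h group, 1.24, 0.35, -1.13, 2.69 and 0.09 in the 48 h group, and 0.47, 1.44, 0.49 and 4.93 in the 72 h group. Control 48 h replicate 2, the low array of block 1, was the high array of block 2. Exposed 48 h replicate 3 was the reverse, and exposed 72 h replicate 4 was the highest of block 2.

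The member closest to block 2 was UF_Ppr_AF_102650. It read 0.03, 1.88, 2.34 and 1.43 in the 24 h group, -2.12, 2.02, -2.54, -1.36 and 1.06 in the 48 h group, and -0.19, 2.1, -0.53, -1.23 and 0.17 in the 72 h group on control arrays. It read 0.68, 2.04, 0.86, 0.58 and 2.37 in the 24 h group, -1.82, -0.26, -3.02, 2.4 and 0.16 in the 48 h group, and -0.28, -0.06, -0.39 and 3.31 in the 72 h group on exposed arrays. The high value on exposed 72 h replicate 4 came from an array that stood apart, and without the 3 such arrays the block's mean correlation was 0.46 in place of 0.51. UF_Ppr_AF_105401 ran from -2.97 to 4.93 on control arrays and reached 9.11 on the same exposed array. UF_Ppr_AF_103436 ran from -2.27 to 2.57 and from -2.50 to 3.87. UF_Ppr_AF_107674, described above, is also of block 2. Of its 17 members, 8 followed the rest of the block at 0.8 or more on both sets of arrays.

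Block 3, with 16 members, had the widest range of mean level on control arrays. Control values were 1.76, -0.09, 0.03 and 6.61 in the 24 h group, -0.13, 0.11, 2.52, 4.77 and 0.15 in the 48 h group, and 0.87, 1.72, 0.07, 0.76 and 1.84 in the 72 h group. Exposed values were 4.04, -0.06, -0.2, 2.22 and 1.52 in the 24 h group, 0.43, 3.43, 0.75, 2.9 and 3.66 in the 48 h group, and 2.5, 1.61, 1.38 and -2.51 in the 72 h group. Control 24 h replicate 4 and 48 h replicate 4 were far above their groups, and the 5 control arrays at 72 h lay between 0.07 and 1.84. Among exposed arrays 24 h replicate 1 and 48 h replicates 2, 4 and 5 were the highest, and 72 h replicate 4 was the lowest.

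For UF_Ppr_AF_106317, the member closest to block 3, the control levels were 2.88, 0.11, 0.39 and 7.58 in the 24 h group, 0.6, 0.11, 3.4, 5.64 and 1.52 in the 48 h group, and 0.74, 2.03, 1.5, 1.19 and 2.15 in the 72 h group. The exposed levels were 4.24, -0.8, 0.0, 3.0 and 1.73 in the 24 h group, -0.55, 3.74, 1.55, 3.89 and 3.72 in the 48 h group, and 2.46, 2.0, 1.24 and -4.57 in the 72 h group. It had the same pair of high control arrays as the block, which its choice by control correlation entails. UF_Ppr_AF_116990 ran from 0.09 to 8.93 on control arrays and UF_Ppr_AF_108171 from 0.58 to 9.35, and on exposed arrays they ran from -2.18 to 5.89 and from -1.24 to 7.25. Of the 16 members, 13 followed the rest of the block at 0.8 or more on both sets, and none of the 6794 other candidates did. On exposed arrays alone 114 other candidates (1.68%) did.

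Block 4 held 9 members, among them UF_Ppr_AF_117573. Its mean level on control arrays was 0.57, 4.91, 2.9 and 1.2 in the 24 h group, 2.95, 0.12, 4.08, 2.55 and 4.11 in the 48 h group, and 3.53, 0.37, 0.86, 1.52 and 3.41 in the 72 h group. On exposed arrays its mean level was 1.86, 2.25, 0.92, 1.74 and 1.18 in the 24 h group, 2.13, 3.38, -0.61, 3.86 and 1.45 in the 48 h group, and 2.64, 3.25, 4.47 and -2.15 in the 72 h group. The exposed 24 h arrays lay closer together than any control group, and the lowest exposed arrays were 72 h replicate 4 and 48 h replicate 3. On control arrays the block mean was lower where the 75th percentile of the array was higher, with r = -0.71 and rho = -0.67, and r = -0.73 without the 2 farthest arrays. It was also lower where more probes were well above background, with r = -0.69 and rho = -0.70, and r = -0.71 without the 2 farthest. These control values are descriptions without a test. The percentile is itself subtracted from every level, so a negative relation to it can be in part built in, and the permutation p below does not allow for this. On exposed arrays r with the percentile was -0.69 (permutation p = 0.00994, adjusted p = 0.161) and rho -0.38 (permutation p = 0.178, adjusted p = 0.737), and r was -0.16 without the 2 farthest. With the number of probes r was 0.16 there (permutation p = 0.574). Of the 200 brightest probes, 52 followed the block mean at 0.8 or more on control arrays, 11 on exposed arrays and 3 on both. The part of array brightness in block 4 was not tested further. UF_Ppr_AF_105616, the member closest to the block, ran from 2.98 to 7.54 on control arrays and from 0.95 to 7.85 on exposed arrays. UF_Ppr_AF_104891 ran from 2.36 to 10.07 and from -0.58 to 10.71.

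Block 5 held 7 members. Its mean level on control arrays was 3.63, 0.89, 1.22 and 0.97 in the 24 h group, 2.07, 0.05, 1.72, 3.05 and 1.0 in the 48 h group, and 5.18, 1.24, 4.55, 3.48 and 0.37 in the 72 h group, and 24 h replicate 1 and 72 h replicates 1, 3 and 4 were the highest of these. On exposed arrays it was 6.0, 2.05, -0.54, 1.32 and 1.94 in the 24 h group, 3.45, 1.54, 2.83, 2.33 and 2.19 in the 48 h group, and 2.8, 1.58, 2.38 and -0.07 in the 72 h group, with 24 h replicate 1 the highest of all. UF_Ppr_AF_103759 was the closest to the block on control arrays, at a correlation of 0.92 with the rest, beside 0.78 on exposed arrays. Its control levels were 4.3, 1.69, 2.99 and 0.56 in the 24 h group, 4.38, 0.57, 3.91, 4.58 and 3.01 in the 48 h group, and 6.98, 2.41, 6.46, 5.91 and 0.93 in the 72 h group. Its exposed levels were 7.74, 4.09, 0.85, 3.2 and 4.1 in the 24 h group, 6.18, 4.14, 5.21, 4.49 and 3.51 in the 48 h group, and 3.7, 1.82, 4.05 and 4.03 in the 72 h group. UF_Ppr_AF_114539 ran from 1.06 to 7.54 on control arrays and from 1.22 to 8.68 on exposed arrays. UF_Ppr_AF_113641 ran from -1.48 to 5.28 and from -5.73 to 4.07. Its correlation with the rest was 0.88 on control arrays and 0.55 on exposed arrays, the lowest of the 7 members there.

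The remaining blocks were small. Block 6, with 7 members, had its lowest control mean, -2.02, on 72 h replicate 3, a high array of block 1, and kept a mean correlation of 0.57 on exposed arrays. In blocks 7, 8 and 9 the mean level spanned 20.7-fold, 13.4-fold and 25.7-fold over control arrays. Over exposed arrays the same means spanned 13.8-fold, 4.47-fold and 4.49-fold. The members themselves did not vary less there. Their median SD in blocks 7, 8 and 9 was 1.55, 1.55 and 1.53 on control arrays and 1.68, 1.77 and 1.90 on exposed arrays.

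**Figure D5:**
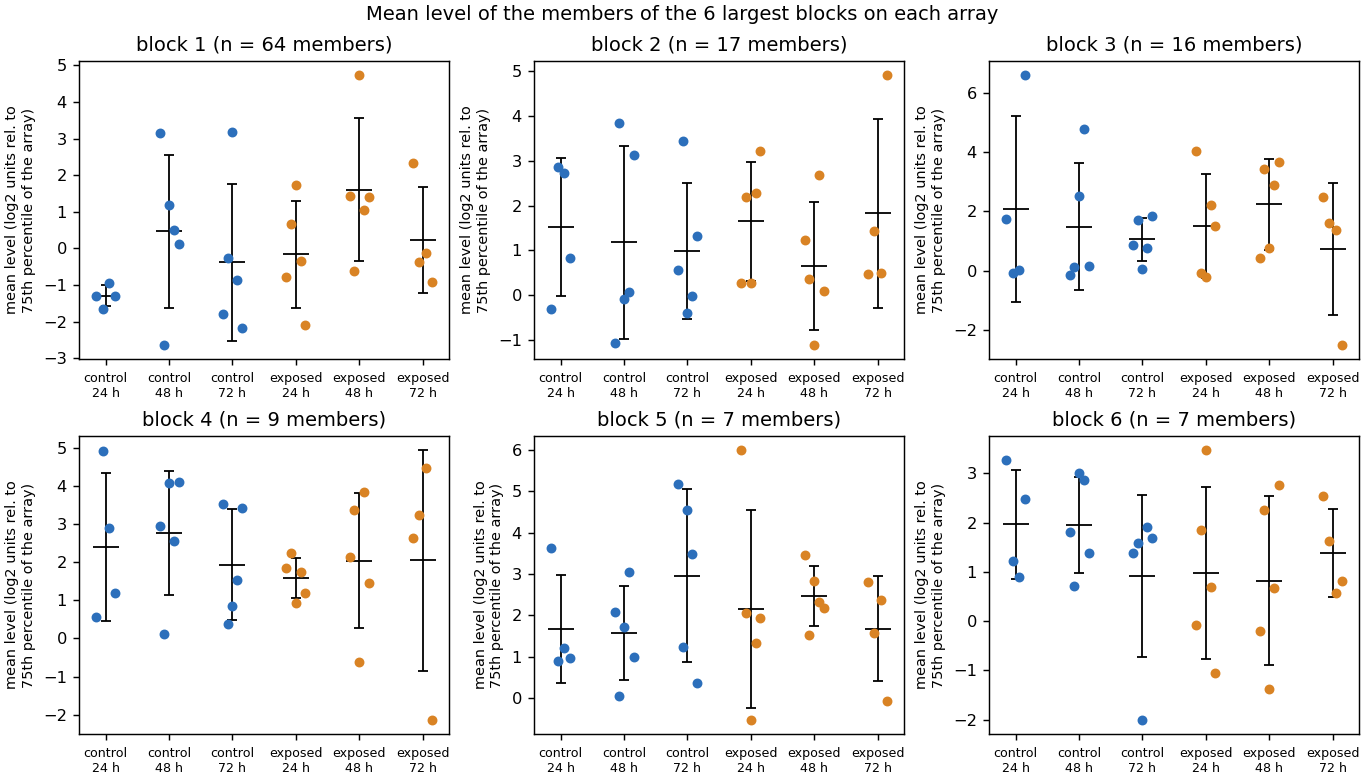
Mean level (y axis, log2 units relative to the 75th percentile of the array) of the members of the 6 largest blocks on each control (blue) and exposed (orange) array, by group (x axis), with the group mean and 1 SD over the 4 or 5 arrays in black. In block 1 the 4 control arrays at 24 h lie between -1.65 and -0.95, and every other group spans more than 3 log2 units.

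Some members are contigs under one cluster number or probes of one contig, so they are not separate by their identifiers. 15 members fell under 7 cluster numbers, giving 9 pairs. UF_Ppr_AF_100809, UF_Ppr_AF_117125 and UF_Ppr_AF_101105, all of block 1, share a number and correlated at 0.97 to 0.99 on control arrays and at 0.92 to 0.98 on exposed arrays. UF_Ppr_AF_104891 and UF_Ppr_AM_119615, of block 4, are probes of the same contig and correlated at 0.77 and 0.98. The lowest pair, UF_Ppr_AF_113894 and UF_Ppr_AF_113058, correlated at 0.41 and 0.72. Both probes of these pairs had been chosen for their control spread. Pairs of a member and a non-member with the same cluster number were also examined. Their correlations ran from -0.68 to 0.63 on control arrays, overlapping those of the member pairs. On exposed arrays they ran from -0.64 to 0.63, below every member pair. A shared number thus did not always go with a shared profile. The non-members had lower control SDs by the rule, here 0.17 to 1.21. How many separate transcripts the 64 probes of block 1 stand for was not tested.

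Phenanthrene was compared with control at each time and as the mean of the 3 differences, in 1 limma fit to 11492 probes and all 28 arrays. All 200 members entered it, since the rule for members is stricter than its filter. At an adjusted p under 0.05, limma called 0 members after 24 h (0% of all probes tested), 0 after 48 h (0%), 0 after 72 h (0%) and 0 for the mean (0%). Without adjustment, p was under 0.05 for 2 members after 24 h (2.45% of all probes), 6 after 48 h (4.25%), 4 after 72 h (5.26%) and 14 for the mean (4.79%). With standard errors this large and co-varying members, these counts are no result about them. The count of 14 became 9 without the 3 arrays that stood apart and 31 with slide as a fixed block, with 0 members called in either fit. The members' median standard error for the mean was 0.67 log2 units, beside 0.30 for all probes, as their choice by spread entails. Their median differences were 0.40, 0.28, 0.27 and 0.15 log2 units, beside -0.08, -0.08, -0.05 and -0.07 for all probes tested. These medians shifted with single arrays, and the one at 72 h changed sign. With 1 array left out in turn they ran from 0.26 to 0.46, 0.10 to 0.42, -0.20 to 0.70 and 0.10 to 0.25. The -0.20 at 72 h came without exposed 72 h replicate 1, and the 0.70 without exposed 72 h replicate 4. The lowest values came without exposed 24 h replicate 3 at 24 h and without control 48 h replicate 2 at 48 h. Without the 3 arrays that stood apart the medians were 0.26, 0.42, 0.70 and 0.34. An F test of whether the phenanthrene difference depended on time called 0 of 11492 probes after adjustment. At an unadjusted p under 0.05 it gave 392 probes, 4 of them members.

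In block 1 the fitted mean difference was above 0 for 62 of 64 members, with a median of 0.98 log2 units, and 0 were called, 5 at an unadjusted p under 0.05. These members co-varied over the arrays, so they do not count as separate observations. As a mean over the block the difference was 0.96, and 0.70 to 1.26 with single arrays left out. The block means were -0.16 ± 1.45, 1.602 ± 1.95 and 0.23 ± 1.44 (SD, n = 5, 5 and 4) on exposed arrays (24, 48 and 72 h in turn), beside -1.30 ± 0.28, 0.47 ± 2.10 and -0.38 ± 2.14 (SD, n = 4, 5 and 5) in controls. At 24 h the exposed values lay on both sides of the control range. Replicate 5, at -2.09, was below every control array, and the other exposed arrays, at -0.79 or more, were above every control array. Exposed and control values overlapped at 48 h and 72 h.

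4 members are named for the mean comparison by their p, with 2 in each direction. UF_Ppr_AF_108051 of block 1 lay at -0.84, -2.23, -0.97 and -1.08 in the 24 h group, 4.09, -2.64, 2.13, 1.7 and 1.17 in the 48 h group, and -1.39, 0.2, 4.6, -0.1 and -2.03 in the 72 h group on control arrays. On exposed arrays UF_Ppr_AF_108051 lay at 0.03, 1.58, 2.91, 0.78 and -1.78 in the 24 h group, 3.22, 0.23, 6.0, 2.4 and 2.4 in the 48 h group, and 3.47, 0.84, 1.03 and 0.58 in the 72 h group. The groups overlapped at each time, and the mean difference was 1.59 log2 units (limma, SE 0.71, adjusted p = 0.836). For UF_Ppr_AF_115833 the control levels were 5.12, 3.22, 5.15 and 0.52 in the 24 h group, 4.78, 5.35, 5.97, 2.46 and 4.36 in the 48 h group, and 5.1, 1.84, 4.35, 5.22 and 5.32 in the 72 h group. Its exposed levels were 5.32, 4.11, 5.04, 4.06 and 4.47 in the 24 h group, 5.2, 5.51, 3.23, 4.88 and 5.08 in the 48 h group, and 6.45, 6.56, 6.63 and 5.44 in the 72 h group. The 4 exposed arrays at 72 h were all above the control arrays at 72 h, and the ranges overlapped at 24 h and 48 h. Its mean difference was 1.07 (limma, SE 0.46, adjusted p = 0.836).

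UF_Ppr_AF_102334 and UF_Ppr_AF_103513 had lower fitted means in exposed fish. The control levels of UF_Ppr_AF_102334 were -2.81, -1.93, -1.24 and -3.74 in the 24 h group, -2.48, -4.04, -1.6, -3.77 and -0.88 in the 48 h group, and -3.23, -0.51, -4.27, -4.22 and -1.35 in the 72 h group. On exposed arrays they were -5.63, -0.79, -3.24, -4.52 and -4.25 in the 24 h group, -5.16, -1.46, -4.32, -4.92 and -5.17 in the 48 h group, and -3.26, -4.66, -3.84 and -4.07 in the 72 h group. Of its 14 exposed values 9 were well above background, so some of its low values lie near background, and the mean difference was -1.38 (limma, SE 0.52, adjusted p = 0.836). For UF_Ppr_AF_103513 the control levels were -0.9, 1.14, 0.35 and 1.69 in the 24 h group, -0.43, -1.72, -3.31, -3.0 and -0.65 in the 48 h group, and 1.43, -1.49, -2.13, -3.96 and -2.0 in the 72 h group. Its exposed levels were -2.35, 0.02, 3.91, -2.18 and -1.41 in the 24 h group, -5.93, -3.18, -4.53, -0.82 and -5.29 in the 48 h group, and -4.27, -0.18, -4.51 and -6.22 in the 72 h group. Control and exposed ranges overlapped at each time, and the mean difference was -1.75 (limma, SE 0.71, adjusted p = 0.836). Of the 14 exposed values of UF_Ppr_AF_103513, 11 were well above background, so some low values may lie near background here too. The lowest, -6.22 and -5.93, came from 72 h replicate 4 and 48 h replicate 1, which stood apart.

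Control times were compared in the same fit. In limma 0 members were called for 48 h against 24 h, for 72 h against 24 h or for 72 h against 48 h, where 0%, 0% and 0% of all probes were called. At an unadjusted p under 0.05 there were 8 members (5.20% of all probes), 4 (4.12%) and 3 (3.66%). All 64 members of block 1 had a higher mean at 48 h than at 24 h, by a median of 1.76 log2 units, with 5 at an unadjusted p under 0.05. The 48 h mean included control replicates 1 and 2, which were the highest and the lowest of the group. The difference of the block means was 1.76, but 1.09 without replicate 1 and 2.54 without replicate 2. Among the 48 h controls, only replicate 1 shared a scan day and a slide with controls of other times. Comparisons with 48 h can therefore hardly separate time from scan day and slide, and no effect of time is concluded from them.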

How the data were processed

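Per the file headers, each deposited scanner table is output of Agilent Feature Extraction 10.7.1.1, and its processed signal is a linear intensity after that software's background correction. The authors also deposited a table of log2 values, with a normalization not given in the sources used here. 1 of its columns belongs to no sample and was not used. The log2 processed signal was reduced by the 75th percentile of each array's 15208 probes. The members and all lists were chosen with earlier results of these data known. The members named are the 5 of highest control SD, the 3 on each side of the threshold, the 3 closest to each of the 5 largest blocks, the 3 of highest and of lowest exposed SD, and the 2 in each direction of smallest p in the mean comparison, besides members sharing an identifier. The planned marker lists matched 0 probes. Members are at least well above background on all control arrays. Blocks came from average linkage on 1 minus the correlation of deviations from group means.

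The fit used limma 3.58.1 in R 4.3.3 with 6 group means, 22 residual degrees of freedom and 11492 probes that passed the background call on 3 or more arrays of a group. Its two-sided tests were adjusted by Benjamini-Hochberg over all probes within each comparison. Spots marked by the scanner software as non-uniform or outlying (779, of which 21 in members) were left out of the fit only. For relations to array measures, two-sided permutation tests (100000 resamples, adjusted over 27 relations) are given for exposed arrays only. Other steps used Python 3.11.15, numpy 2.4.6, scipy 1.17.1, pandas 2.3.3 and matplotlib 3.10.9, and the fit and the clustering were tested on simulated data. Replicate numbers follow the order of deposit and only name arrays. Alternatives were quantile normalization, median scaling, normexp (offset 50) on median in place of mean spot signals, other probe filters, slide terms, the authors' table, Spearman correlation, a stricter cut, and each array left out. Leaving out the 3 arrays that stood apart, the second scan day alone and keeping the bright and split probes were alternatives chosen after seeing the data. Precision is limited by the number of arrays.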

Additional observations from a re-analysis of the deposited data

Results flagged for a closer look

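In 228 groups of 4 or 5 arrays, formed by the 9 block means and the named probes, the highest or lowest array was tested for its distance from the rest, as its gap to the nearest array divided by the range of the group. In 32 cases this ratio passed Dixon's 95% critical value. 15 of these were among 114 control groups, whose values chose the members, so they are descriptions only. The other 17 were among 114 exposed groups. For groups not chosen by their values chance passes it in about 1 in 20, but some probes were named for their exposed values, and probes of a block share arrays, so the 17 are no separate observations.

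For block 5 the ratio was 0.882 on control 24 h replicate 1, at 3.63 beside 0.89 to 1.22 on the other arrays. The ratio of block 6 was 0.864 on control 72 h replicate 3, at -2.02 beside 1.37 to 1.91 on the other arrays. Block 9 had a ratio of 0.882 on exposed 72 h replicate 1, at -0.96 beside 0.14 to 0.29 on the other arrays. In UF_Ppr_AF_107674 the ratio reached 0.880 on exposed 72 h replicate 4, at 9.38 beside 0.39 to 1.48 on the other arrays. For UF_Ppr_AF_102443 the ratio was 0.802 on control 72 h replicate 1, at -3.59 beside 4.84 to 6.93 on the other arrays. The ratio of UF_Ppr_AF_106666 was 0.819 on control 72 h replicate 3, at 0.52 beside -3.89 to -3.09 on the other arrays. A further value was 0.784 on exposed 48 h replicate 3, at 1.28 beside -1.94 to -1.24 on the other arrays. UF_Ppr_AF_115818 had a ratio of 0.948 on exposed 72 h replicate 1, at 1.38 beside -1.47 to -1.32 on the other arrays. In UF_Ppr_AF_118032 the ratio reached 0.865 on control 24 h replicate 3, at -1.33 beside -2.21 to -2.09 on the other arrays. Another ratio was 0.858 on exposed 72 h replicate 1, at 3.17 beside -0.51 to 0.01 on the other arrays.

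For UF_Ppr_AF_103912 the ratio was 0.741 on exposed 48 h replicate 3, at 4.42 beside -0.36 to 0.88 on the other arrays. The ratio of UF_Ppr_AF_103908 was 0.711 on control 72 h replicate 3, at 3.26 beside -2.19 to -0.62 on the other arrays. UF_Ppr_AF_102650 had a ratio of 0.910 on exposed 72 h replicate 4, at 3.31 beside -0.39 to -0.06 on the other arrays. In UF_Ppr_AF_105401 the ratio reached 0.749 on control 72 h replicate 2, at 4.93 beside -2.02 to -0.27 on the other arrays. A further value was 0.863 on exposed 72 h replicate 4, at 9.11 beside -2.37 to -0.8 on the other arrays. For UF_Ppr_AF_105616 the ratio was 0.793 on control 48 h replicate 2, at 3.45 beside 6.27 to 7.01 on the other arrays. The ratio of UF_Ppr_AF_103759 was 0.847 on exposed 72 h replicate 2, at 1.82 beside 3.7 to 4.05 on the other arrays. UF_Ppr_AF_113641 had a ratio of 0.897 on control 24 h replicate 1, at 3.42 beside -1.48 to -0.97 on the other arrays. A further value was 0.733 on exposed 24 h replicate 1, at 4.06 beside -2.66 to -0.87 on the other arrays. In UF_Ppr_AF_102387 the ratio reached 0.754 on control 48 h replicate 5, at 3.71 beside -1.01 to 0.15 on the other arrays. The same probe had 0.920 on exposed 72 h replicate 4, at 8.91 beside 0.24 to 0.93 on the other arrays.

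For UF_Ppr_AF_115833 the ratio was 0.721 on control 72 h replicate 2, at 1.84 beside 4.35 to 5.32 on the other arrays. Another ratio was 0.725 on exposed 48 h replicate 3, at 3.23 beside 4.88 to 5.51 on the other arrays. A further value was 0.854 on exposed 72 h replicate 4, at 5.44 beside 6.45 to 6.63 on the other arrays. The ratio of UF_Ppr_AF_118325 was 0.787 on control 72 h replicate 3, at 2.64 beside -3.1 to -1.88 on the other arrays. A further value was 0.719 on exposed 48 h replicate 2, at -1.67 beside -2.81 to -2.49 on the other arrays. UF_Ppr_AF_104945 had a ratio of 0.930 on control 24 h replicate 1, at 3.36 beside 2.38 to 2.45 on the other arrays. The same probe had 0.757 on control 48 h replicate 2, at 1.19 beside 3.08 to 3.69 on the other arrays. Another ratio was 0.913 on control 72 h replicate 4, at -4.13 beside 2.38 to 3.0 on the other arrays. A further value was 0.742 on exposed 24 h replicate 5, at 1.8 beside 2.78 to 3.13 on the other arrays. In UF_Ppr_AF_108051 the ratio reached 0.843 on exposed 72 h replicate 1, at 3.47 beside 0.58 to 1.03 on the other arrays. For UF_Ppr_AF_102334 the ratio was 0.770 on exposed 48 h replicate 2, at -1.46 beside -5.17 to -4.32 on the other arrays.

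For UF_Ppr_AF_103759 of block 5 every exposed array lay above the control mean at 48 h, by 1.41 log2 units on average, and below it at 72 h, with a mean difference of -1.14. The effects at these times differed by 2.55 log2 units, and for this probe alone the difference was not tested.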

How the results depend on the processing

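No paired analysis was possible because the labels give no replicate numbers. Under each alternative run, 0 members were called in each of the 7 comparisons. Cutting the clustering at a correlation of 0.7 gave 5 blocks in place of 9. The mean correlation of block 5 on exposed arrays was 0.39 to 0.73 with single exposed arrays left out, and the lowest value came without 24 h replicate 1. For block 4 this range was 0.395 to 0.62, for block 1 it was 0.70 to 0.84, and for the members' median exposed SD it was 1.73 to 1.92. The cause was not tested. Choosing the members again shared 192 of 200 after quantile normalization, 194 after median scaling, 160 after normexp and 180 with bright and split probes kept. Single control arrays left out shared 165 (without 72 h replicate 3) to 195. The count of members at an unadjusted p under 0.05 moved more: for the mean of 3 times it was 14, but 31 with slide as a fixed block, 6 after normexp, 9 without the 3 arrays that stood apart and 6 to 37 with single arrays left out. The highest, 37, came without control 72 h replicate 3, and 28, 25 and 24 came without control 48 h replicate 1, exposed 48 h replicate 2 and exposed 24 h replicate 5. For control 48 h against 24 h the count was 8, but 26 with slide as a fixed block, and 45 without control 48 h replicate 2. With slide fixed, this comparison rests largely on control 48 h replicate 1 and exposed 48 h replicate 5. They were the only 48 h arrays on slides shared with other times. The members' median standard error rose from 1.18 to 1.59 log2 units in that fit. The members' median difference changed sign in 2 comparisons: at 72 h from 0.27 to -0.20 without exposed 72 h replicate 1, and for control 72 h against 24 h from 0.32 to -0.05 without control 72 h replicate 3. The exposed mean correlation of block 9 went from -0.07 to 0.06 without the 3 arrays that stood apart and to 0.04 without exposed 72 h replicate 4. The authors' deposited table had all exposed values for 191 members.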

Other observations

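Between blocks, the mean correlation of members on exposed arrays ran from -0.38 to 0.39 over the 36 block pairs. Blocks 3 and 4 had -0.14 on control arrays and 0.38 on exposed arrays, and blocks 3 and 5 had 0.01 and 0.39. Blocks 2 and 5 had -0.51 and -0.23. The first axis of the members' deviations held 37.6% of their sum of squares on control arrays and 32.5% on exposed arrays, beside 21.5% and 38.1% for the other candidates. The exposed shares include the 3 arrays that stood apart and were not computed without them.

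Gene identity, cell types and sequences of the probes were not analysed here. With 14 arrays in each set, a correlation rests on few independent values, and single arrays set several of the ranges given above.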
